A study of Mus musculus with 38 samples.

Results

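Gene expression in the intestinal epithelium of mice lacking hexokinase 2 in that tissue was compared between day 7 of dextran sodium sulfate (DSS) colitis and the untreated state. The comparison took the 7 libraries whose titles place them at day 7 in KO mice and the 5 whose titles place them at day 0 in KO mice, that is 12 of the 38 libraries of the series. Beside them stand 8 libraries of KO mice at day 3 of DSS, 4 of untreated WT mice and 7 of WT mice at day 7. KO mice are C57BL/6 mice with a floxed Hk2 allele and a Cre recombinase driven by the Villin promoter, which is active in epithelial cells of the gut, so other cells of the mucosa keep the gene. WT mice are littermates with the same floxed allele (Hk2fl/fl) and no stated Cre. DSS was given at 1.5% (w/v) in the drinking water to males of 10 to 12 weeks, with KO and WT mice in the same cages. Untreated phenotyping used mice of 9 to 11 or 86 to 92 weeks, and the labels give neither the age nor the sex of each day 0 animal. Source labels name isolated epithelial cells of the intestine, whereas the series text names colon. Titles carry one animal number per library, and p-values measure the spread between these libraries.

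DSS is a sulfated polysaccharide that injures the lining of the colon and lets luminal bacteria reach the mucosa, which draws in neutrophils and monocytes. Epithelial cells answer with chemokines, antimicrobial proteins and a repair program, while mucus-producing goblet cells and transporting colonocytes lose part of their specialised gene expression. Hexokinase 2 carries out the first step of glycolysis and can bind the outer mitochondrial membrane at the voltage-dependent anion channel (VDAC). The series title links the enzyme to mitochondrial metabolism and cell death in colitis, and the present comparison asks what colitis does to the epithelium that lacks it.

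Levels below are counts-per-million values scaled by the TMM method (CPM), and folds are log2 fold changes of day 7 over day 0 unless another pair is named. Day 0 and day 7 libraries differ in kind. KO libraries of day 0 held 10503352 to 17488676 counts and those of day 7 held 37649458 to 60644284. Histone genes took 0.266 to 0.413% of counts at day 0 and 0.012 to 0.02% at day 7, and noncoding small RNA genes took 1.69 to 4.42% and 0.0299 to 0.0484%. All 57 histone genes tested were lower at day 7, and these classes and the mitochondrial genes were left out of every count below. Day 3 libraries resemble those of day 7 in these shares, with histone genes at 0.0173 to 0.0355%, so KO day 7 against KO day 3 (n = 8) is given beside the main comparison. Time on DSS and kind of library cannot be told apart between day 7 and day 0. The 2 comparisons share the day 7 libraries.

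Some libraries stand apart. In d0_KO_32, genes of the mitochondrial genome took 61.7% of counts, against 9.15 to 17.5% in the other 4 KO day 0 libraries. The female-specific transcript Xist stood at 481 CPM there, against at most 0.686 CPM in the other 11 libraries. The Y-linked gene Ddx3y was at 0.235 CPM in d0_KO_32 and at 47.6 to 82.5 CPM in the other 11. By both genes, d0_KO_32 read as female and the other 11 as male. At day 7, d7_KO_420 had the highest S100a9 (714 CPM) and held the highest level of the 7 for 36.6% of the 1499 genes raised at least 2-fold. The library labelled d3_KO_345 had Hk2 at 435 CPM, above the highest KO library of day 0 or day 7, which puts its label in doubt but does not settle it. In d7_KO_420, Hk2 was at 268 CPM, the highest of KO day 7 and within the 228 to 611 CPM of WT day 7. Each of these 2 libraries also had the highest S100a9 of the KO libraries of its day, 12.2 CPM in d3_KO_345. Counts of list members printed below are given again without d0_KO_32, d7_KO_420 or, against day 3, d3_KO_345 where the count of risen or fallen members moved by more than 1.

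Of 16092 genes tested, 4453 (27.7%) were higher at day 7 and 4278 (26.6%) were lower, at an adjusted p under 0.05, together 54.3%. Of these, 1499 were higher and 2253 lower by at least 2-fold, together 23.3% of the genes tested. The median log2 fold change over all genes was 0.02. The shares of 27.7% and 26.6% are the background for the counts of list members below. Libraries of the 2 groups did not overlap for 2931 genes (18.2%) that were higher and 2508 (15.6%) that were lower. Without d0_KO_32 the calls were 4691 higher and 4749 lower, and without d7_KO_420 they were 4905 and 4854. From day 3 to day 7, 1632 of 15415 genes (10.6%) rose and 1355 (8.79%) fell, and without the library labelled d3_KO_345 the calls were 1827 and 1576 of 15265. In WT mice, 4814 of 17056 genes (28.2%) were higher at day 7 than at day 0 and 4790 (28.1%) were lower, together 56.3%.

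Epithelial markers were present at both times. Epcam, an adhesion molecule of all gut epithelial cells, measured 1427 ± 87.9 CPM (SD, n = 5) at day 0 and 1511 ± 115 CPM (SD, n = 7) at day 7. Its log2 fold change was 0.06 ± 0.09 (SE, adjusted p = 0.6), which did not pass the test. Of the 15 pan-epithelial markers, all passed the filter on low counts, 9 rose and 0 fell, whereas from day 3 to day 7, 0 rose and 1 fell. Lgals4, a galectin of mature enterocytes, rose by 0.69 (adjusted p = 0.0021), and the transcription factor Elf3 rose by 1.25 (adjusted p = 1.5e-06). Krt20, the keratin of surface cells, rose by 1.01 (adjusted p = 0.00011). Against day 3 without the library labelled d3_KO_345, the values were 0.24 for Lgals4, 0.02 for Elf3 and 0.56 for Krt20. None of them passed (adjusted p = 0.23, 0.9 and 0.17).

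Hk2 (chr6:82725025-82774454 of GRCm38, minus strand), the targeted gene, remained detectable in every KO library. It was at 60.7, 33.1, 80.8, 89.7 and 118 CPM in the 5 day 0 libraries. In the 7 day 7 libraries it was at 56.1 to 268 CPM (median 126), where d7_KO_420 was highest. At day 7, d7_KO_366, d7_KO_367 and d7_KO_368 were at 56.1, 86.1 and 106 CPM. The libraries d7_KO_420, d7_KO_421, d7_KO_422 and d7_KO_423 were at 268, 195, 141 and 126 CPM, above every day 0 library. The groups overlapped, and the log2 fold change of 0.84 ± 0.36 (SE, adjusted p = 0.064) did not pass the threshold of 0.05. WT libraries held 254, 395, 289.6 and 449 CPM at day 0 and 228 to 611 CPM (median 305) at day 7. Counts cover the whole gene and the deleted exons are not given in the sources used here. The antisense gene Gm17034 overlaps Hk2 and counting ignored the strand, so their reads cannot be told apart. Without d0_KO_60 the fold change was 1.05 (adjusted p = 0.038), without d7_KO_366 it was 0.98 (adjusted p = 0.024), and with the DESeq2 Wald test it was 0.87 (adjusted p = 0.033), each past the threshold, as was 0.96 (adjusted p = 0.029) with no filter on low counts. The value moved the other way without d7_KO_420, to 0.61 (adjusted p = 0.12), without d0_KO_32, to 0.67 (adjusted p = 0.12), and without both, to 0.44 (adjusted p = 0.21).

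Of the 5 hexokinase genes, Hk3, the form of myeloid cells, was the one that rose. Hk3 was at 0, 0.117, 0, 0.0961 and 0.198 CPM at day 0 and at 0.966 to 8.37 CPM (median 4.14) at day 7, with a log2 fold change of 5.96 ± 0.78 (SE, adjusted p = 2.5e-05) and no overlap (6.66 without d0_KO_60). Log2 fold changes were 0.26 (adjusted p = 0.08) for Hk1, the broadly expressed form, and 0.22 (adjusted p = 0.61) for Hkdc1, a hexokinase-like gene of epithelia. Neither passed the test. Hk1 passed without d0_KO_24 (adjusted p = 0.047) or without d7_KO_422 (adjusted p = 0.021), and the value for Hkdc1 was -0.18 (adjusted p = 0.44) without d7_KO_420. Per kilobase of gene model, mean levels in KO libraries at day 7 were 32.03 CPM for Hk1, 23.4 CPM for Hk2, 13.8 CPM for Hkdc1 and 1.22 CPM for Hk3. In WT libraries at day 7, Hk2 was at 55.6 CPM per kilobase and Hk1 at 29.5, so the order of those genes was the other way round.

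**Figure D1:**
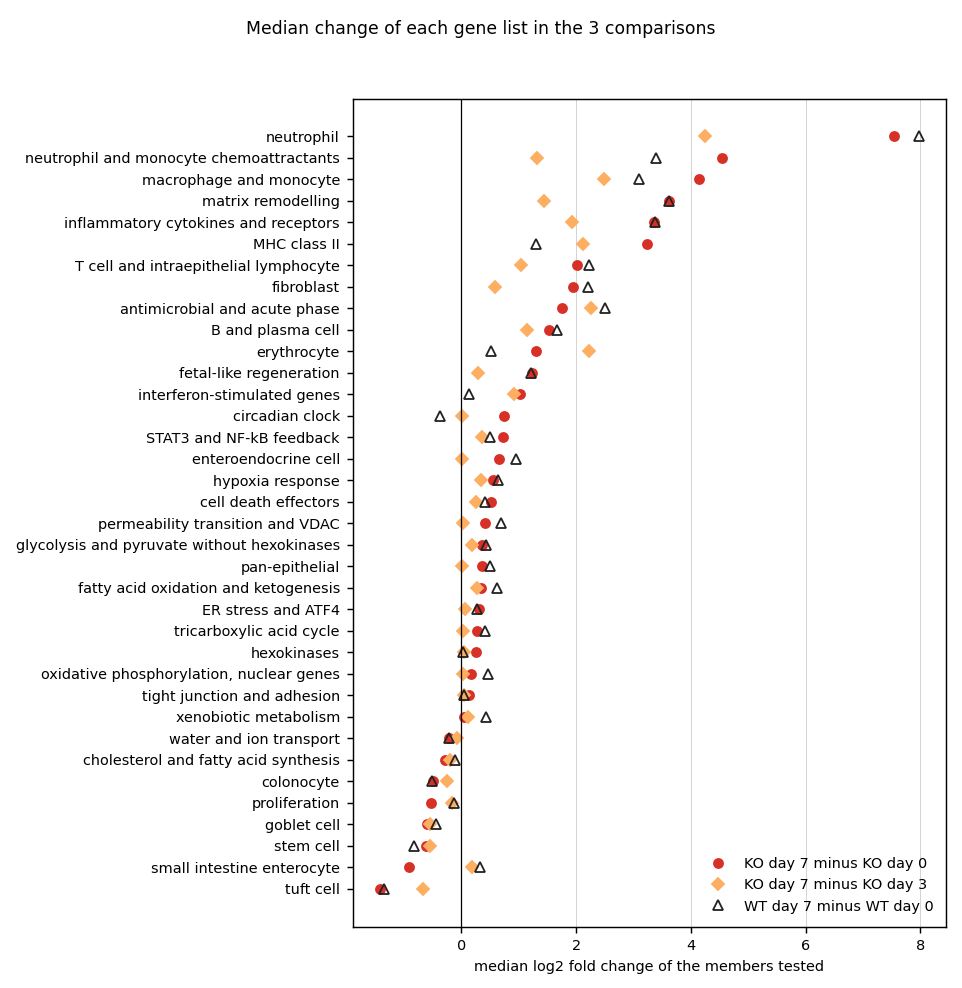
Median log2 fold change of the tested members of each gene list (x axis) for KO day 7 against day 0 (red circles), KO day 7 against day 3 (orange diamonds) and WT day 7 against day 0 (open triangles). Lists with at least 5 tested members are shown, and the highest red point is the neutrophil list at 7.55, the lowest the tuft cell list at -1.43.

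The largest rises belonged to genes of neutrophils and other myeloid cells. The 12 genes that led the increases were C5ar1, Clec4e, Ifitm6, S100a9, Chil3, Lcn2, S100a8, Hp, Cxcl2, Clec4d, Irg1 and Trem1. Lack of overlap between the groups was a condition for being picked, here and for the 12 genes that led the decreases. S100a8 and S100a9 encode the subunits of calprotectin, a metal-binding protein of neutrophils. S100a9 was at 0.127, 0.235, 0, 1.63 and 0.0992 CPM at day 0 and at 13.3 to 714 CPM (median 48.5) at day 7, a log2 fold change of 8.60 ± 1.42 (SE, adjusted p = 0.00018). S100a8 was at 0.255, 0.117, 0.125, 1.25 and 0.0992 CPM and 9.13 to 513 CPM (median 34.7), a log2 fold change of 8.13 ± 1.46 (SE, adjusted p = 0.00036). Both genes were picked with every day 7 library above every day 0 library, and d7_KO_420 was far above the next. Without that library the log2 fold changes were 7.17 for S100a9 and 6.51 for S100a8, and without d0_KO_54 they were 10.46 and 9.26.

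C5ar1, the receptor for the complement fragment C5a, had 0 counts in all day 0 libraries and 1.49 to 17.2 CPM (median 6.1) at day 7. Set against 3 counts in each day 0 library, this is at least 26-fold higher. Clec4e and Clec4d, lectin receptors of myeloid cells that bind microbial glycolipids, had 3 or fewer counts over all day 0 libraries. Their pooled ratios of day 7 to day 0 were 483 (95% exact interval 165 to 2343) and 275 (95% exact interval 76 to 2269), intervals that cover counting error only. Ifitm6, an interferon-induced membrane protein of myeloid cells, had a ratio of 461 (95% exact interval 82.6 to 18198). Trem1, a receptor that amplifies neutrophil and monocyte responses, was at 0.127, 0, 0.0624, 0 and 0.0992 CPM at day 0 and at 2.11 to 53.7 CPM (median 8.88) at day 7.

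The list of neutrophil markers had 20 genes, of which 16 passed the filter and all of those were higher, with a median log2 fold change of 7.55, or 7.35 with the 1 member at 0 at its bound and 6.51 without d7_KO_420. Without d0_KO_32, 15 of 16 passed. A gene absent at day 0 could pass the filter through the day 7 libraries alone, so counts over immune lists describe the genes tested and not all members. The summed level of the list ran from 2.46 to 21.4 CPM at day 0 and from 165 to 2374 CPM at day 7. Ly6g, which encodes a surface antigen used to define mouse neutrophils, was at 16.1, 1.41, 12.7, 13.8 and 19.5 CPM at day 0, where d0_KO_32 was lowest, and at 41.6 to 386.1 CPM (median 100.5) at day 7. Ly6g made up most of the summed level in every day 0 library, where S100a9 was at most 1.63 CPM. At day 7, d7_KO_420 was highest for both genes, but d7_KO_423 had Ly6g at 125.5 CPM and the lowest S100a9, at 13.3 CPM. Which cells gave the Ly6g reads was not tested. Csf3r, the receptor for the granulocyte growth factor, rose by 7.66 (adjusted p = 4.9e-07), or 8.36 without d0_KO_54. Between day 3 and day 7, 15 of 15 tested members rose with a median of 4.25, and without the library labelled d3_KO_345 the median was 6.50.

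Monocyte and macrophage markers were higher in 14 of 16 cases, with a median of 4.13, and in 13 without d0_KO_32. Lyz2, the lysozyme of macrophages, was at 4.71, 0.938, 2.62, 2.5 and 2.88 CPM at day 0 and at 18.7 to 215 CPM (median 86) at day 7, without overlap. Adgre1, which encodes the macrophage antigen F4/80, rose by 4.99 (adjusted p = 0.00017) and Csf1r, the growth factor receptor of the lineage, by 4.32 (adjusted p = 2.4e-06). Summed levels of the list ran from 46.8 to 62.6 CPM and 119 to 686 CPM. In bulk libraries, more cells of a type and more RNA per cell cannot be told apart.

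Lymphocyte markers were also higher at day 7, and markers of stromal cells did not move as one. Of 14 T cell and intraepithelial lymphocyte genes tested, 12 rose, with a median of 2.01 and summed levels from 18.3 to 34.8 CPM at day 0 and from 60.7 to 161 CPM at day 7. Cd3e, part of the T cell receptor complex, rose by 3.02 (adjusted p = 4.4e-06), and Cd8a, the coreceptor of cytotoxic and most intraepithelial T cells, by 2.11 (adjusted p = 0.00012). Of 9 B and plasma cell genes, 6 rose, and 4 did without d0_KO_32. Of 11 fibroblast genes, 5 rose (45.5%), and 2 (18.2%) did without d0_KO_32, when 27.9% of all genes did. Of 3 endothelial genes that passed the filter, 0 rose and 2 fell, with a median of -1.49, and neither of 2 smooth muscle genes passed the test. Vim, an intermediate filament of mesenchymal and immune cells, rose by 3.08 (adjusted p = 9.2e-05), without overlap. Col1a1 and Col3a1, fibrillar collagens of fibroblasts, rose by 2.47 (adjusted p = 0.029) and 2.26 (adjusted p = 0.04), but overlapped between the groups. In d7_KO_366, d7_KO_367 and d7_KO_368, Col1a1 was at 22.6, 9.87 and 29.5 CPM and Col3a1 at 119, 32.8 and 123 CPM. In d7_KO_420, d7_KO_421, d7_KO_422 and d7_KO_423 they were at 0.88 to 2.83 CPM and 4.61 to 10.3 CPM. Those values lie within the day 0 ranges of 0.704 to 2.98 CPM and 4.22 to 16.8 CPM. For both, leaving out any 1 of d0_KO_24, d0_KO_32, d0_KO_53, d0_KO_54, d7_KO_366 and d7_KO_368 ended the call. The part of these cells in the rises described below was not tested.

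**Figure D2:**
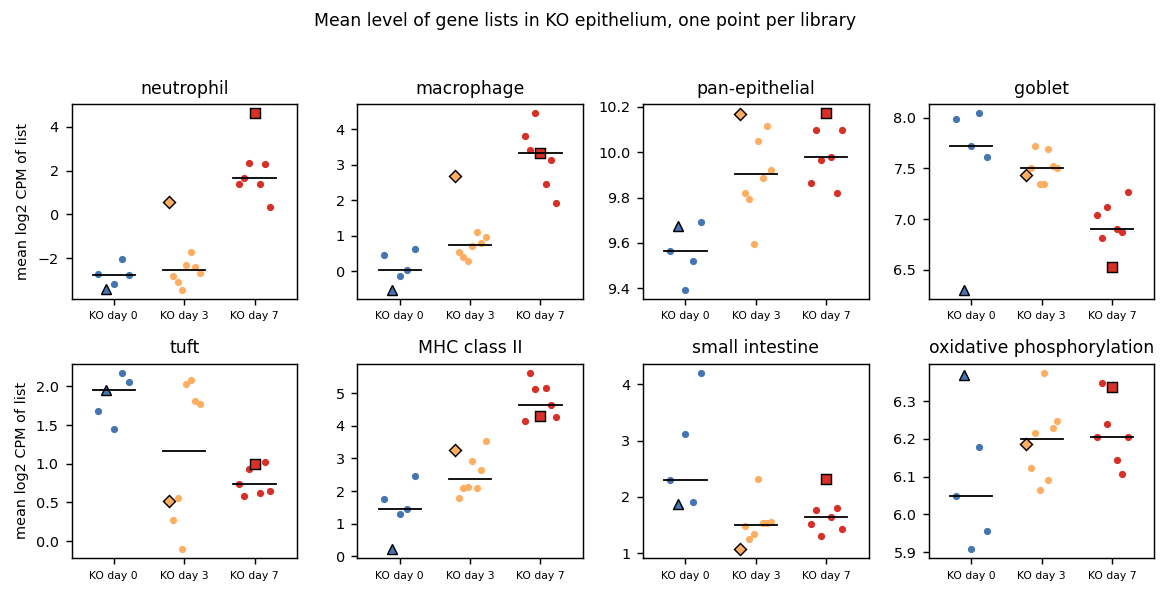
Mean log2 CPM of the members of 8 gene lists (y axis) in each KO library at day 0, day 3 and day 7, with the median of each group as a black line. The triangle is d0_KO_32, the square d7_KO_420 and the diamond the library labelled d3_KO_345. The neutrophil and macrophage lists are higher in all 7 day 7 libraries than in the day 0 libraries, and the tuft cell list is lower.

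Chemokines that draw neutrophils and monocytes rose together. Of 16 genes, all tested, 13 rose and 0 fell, 81.2% against 27.7% of all genes, with a median of 4.55 against 0.02. Without d0_KO_32, 1 fell. From day 3 to day 7, 8 rose and 1 fell, and without the library labelled d3_KO_345 11 rose. Cxcl1, Cxcl2 and Cxcl3 are neighbouring genes on chromosome 5 whose products act on the neutrophil receptor CXCR2. Their promoters are shown because they moved together and share one element. In each, the bases before the RefSeq start site (GRCm38.p6, plus strand, 5′ to 3′) hold a match to the NF-kB motif, in capitals, where the matches on both strands overlap in one run of 11 bases.
Cxcl1, chr5:90891115-90891244: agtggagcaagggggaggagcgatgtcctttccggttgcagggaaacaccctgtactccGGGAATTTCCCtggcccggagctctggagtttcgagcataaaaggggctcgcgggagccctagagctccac
Cxcl2, chr5:90903769-90903898: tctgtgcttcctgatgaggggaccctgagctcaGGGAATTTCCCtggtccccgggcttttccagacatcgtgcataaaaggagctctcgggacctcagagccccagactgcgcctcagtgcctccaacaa
Cxcl3, chr5:90785971-90786100: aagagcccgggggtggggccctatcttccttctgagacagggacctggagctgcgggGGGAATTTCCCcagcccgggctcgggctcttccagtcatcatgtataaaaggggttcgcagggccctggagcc
The run starts 71 bases before the start of Cxcl1, 97 before that of Cxcl2 and 73 before that of Cxcl3, and its letters are the same in all. Cxcl10, whose product attracts T cells through CXCR3, held 2 matches, on the minus strand of the chromosome.
Cxcl10, chr5:92348890-92349069: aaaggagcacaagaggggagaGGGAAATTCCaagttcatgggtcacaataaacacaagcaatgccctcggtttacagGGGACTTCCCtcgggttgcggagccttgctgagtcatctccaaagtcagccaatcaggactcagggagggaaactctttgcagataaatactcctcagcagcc
A match was found in 5 of the 11 list members with a RefSeq window (45.5%), the fifth being Ccl20, and in 4.51% of all 32851 windows of 250 bases before to 50 after a start. A match is a description of these letters and not a measured binding site.

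Cxcl1 was at 1.4, 0.821, 1.62, 1.63 and 2.18 CPM in the day 0 libraries and at 6.09 to 31.2 CPM (median 9.62) at day 7, a log2 fold change of 3.02 ± 0.42 (SE, adjusted p = 4.3e-05). Cxcl2 was at 0.382, 0.352, 0.125, 0.769 and 0.298 CPM and 16.8 to 405 CPM (median 44.6), a log2 fold change of 7.99 ± 1.12 (SE, adjusted p = 4.7e-05), and Cxcl3 at 0.0636, 0, 0, 0.577 and 0.0992 CPM and 2.09 to 87.9 CPM (median 6.4), a log2 fold change of 6.85 ± 1.57 (SE, adjusted p = 0.0022). No day 7 library overlapped a day 0 library for Cxcl1 or Cxcl3, and Cxcl2 was picked without overlap. The library d7_KO_420 was highest for each. Without d7_KO_420 the values for Cxcl2 and Cxcl3 were 6.90 and 4.95, and without d0_KO_54 that for Cxcl3 was 8.52. Cxcl5, a further CXCR2 ligand made by epithelium, was at 0.382, 0.117, 0.561, 0.769 and 0.595 CPM and 5.17 to 19.2 CPM (median 10.2), a log2 fold change of 4.54 ± 0.51 (SE, adjusted p = 6.7e-06). Cxcl9 and Cxcl10, interferon-induced attractants of T cells, rose by 5.91 (adjusted p = 5.7e-05) and 4.56 (adjusted p = 3e-05). Ccl2, the main attractant of monocytes, had 3 or fewer counts over the day 0 libraries and a pooled ratio of 112 (95% exact interval 30.99 to 927). Ccl20, which attracts dendritic cells and lymphocytes through CCR6, had a log2 fold change of 1.54 (adjusted p = 0.065), short of the test, and passed with the DESeq2 Wald test at 1.59 (adjusted p = 0.018) and without d7_KO_366, d7_KO_368 or d7_KO_422. Cxcl16, a membrane-bound chemokine, rose by 1.24 (adjusted p = 0.021), with overlap, and did not pass without d0_KO_53 (adjusted p = 0.053) or d0_KO_54 (adjusted p = 0.052).

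Inflammatory cytokines followed the same direction. Of 26 genes on the list, 21 passed the filter, 18 rose and 0 fell, with a median of 3.35. Without d7_KO_420, 16 of 19 rose and 1 fell. Il1b, a product of activated myeloid cells, was at 0.636, 0.235, 0.374, 1.25 and 1.29 CPM at day 0 and at 33.8 to 229 CPM (median 92.1) at day 7, a log2 fold change of 7.18 ± 0.71 (SE, adjusted p = 1.8e-06). Il1a, its paralog released by damaged cells, rose by 6.38 (adjusted p = 0.0005). Il1rn, the secreted antagonist of both, was at 28.6, 27.3, 29.1, 25.1 and 33.1 CPM and 57.8 to 184 CPM (median 99.8), a log2 fold change of 1.92 ± 0.22 (SE, adjusted p = 8.8e-06). Day 7 was above day 0 in every library for these genes. Tnf was at 5.86, 5.63, 2.68, 2.59 and 5.45 CPM and 16.3 to 111 CPM (median 39.6), a log2 fold change of 3.49 ± 0.49 (SE, adjusted p = 4.4e-05), without overlap. Osm, a myeloid cytokine of the interleukin-6 family, rose by 6.62 (adjusted p = 0.00027), and Il33, an alarmin of epithelial and stromal cells, by 4.49 (adjusted p = 0.00012). Without d7_KO_420 the values were 5.79 for Il1a and 5.60 for Osm, and without d0_KO_54 that for Osm was 7.35.

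Il6 had 1 count over the 5 day 0 libraries and 0.463 to 4.91 CPM (median 1.46) at day 7, a pooled ratio of 104 (95% exact interval 18.7 to 4132). Its promoter, the one on the cytokine list with a match to the NF-kB motif among 20 with a window (5%), is shown with that match in capitals, 44 bases before the start on the plus strand.
Il6, chr5:30012984-30013113: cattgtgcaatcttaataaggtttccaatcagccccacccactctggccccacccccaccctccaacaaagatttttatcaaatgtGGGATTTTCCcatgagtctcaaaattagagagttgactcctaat
Irg1, which makes the antimicrobial metabolite itaconate in activated macrophages, was at 0.0636, 0, 0.0624, 0.384 and 0 CPM at day 0 and at 4.07 to 60.4 CPM (median 18.5) at day 7. Its log2 fold change was 7.77 ± 1.00 (SE, adjusted p = 2.2e-05), or 9.03 without d0_KO_54.

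**Figure D3:**
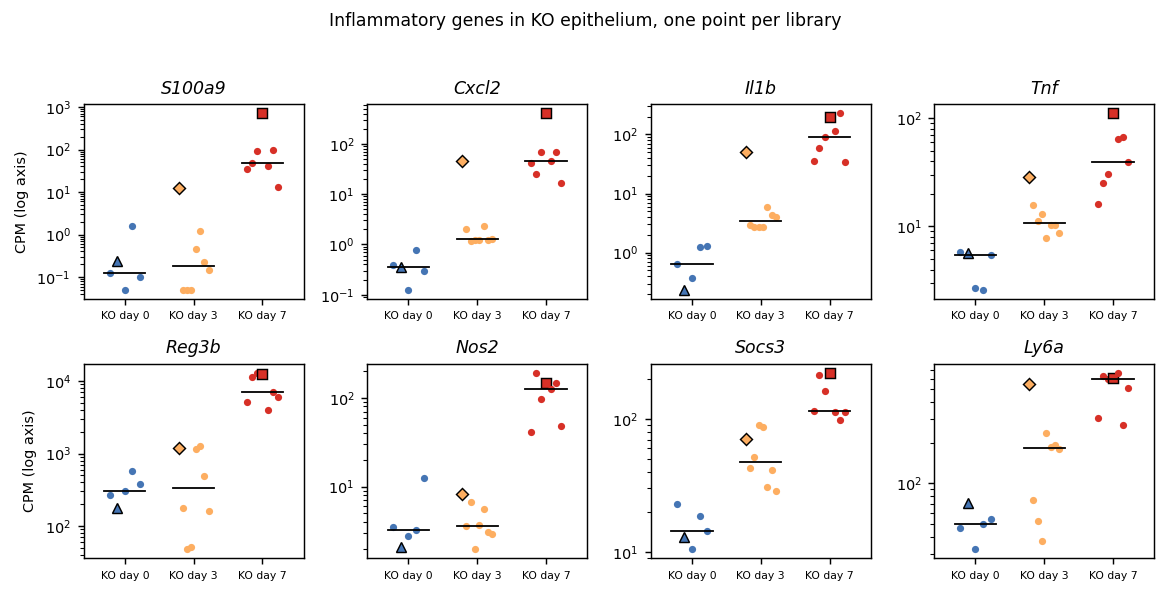
CPM on a log axis of 8 inflammatory genes in each KO library at day 0, day 3 and day 7, with group medians as black lines and values below 0.05 CPM drawn at 0.05. The triangle is d0_KO_32, the square d7_KO_420 and the diamond the library labelled d3_KO_345. All 7 day 7 libraries lie above the day 0 libraries for each gene, a condition by which S100a9 and Cxcl2 were picked, and S100a9 reaches 714 CPM in d7_KO_420.

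Of antimicrobial and acute phase genes, more rose than fell. All 28 were tested, 20 rose (18 without d0_KO_32) and 3 fell, with a median of 1.75. Reg3b and Reg3g encode secreted lectins that bind bacterial surfaces. Reg3b was at 267, 177, 302, 574 and 376 CPM at day 0 and at 4015 to 13070.4 CPM (median 7125) at day 7, a log2 fold change of 4.61 ± 0.42 (SE, adjusted p = 8.1e-07). Reg3g was at 146, 91.7, 203, 209 and 204 CPM and 1130.2 to 3272 CPM (median 1612), a log2 fold change of 3.45 ± 0.33 (SE, adjusted p = 1.2e-06). No library overlapped between the groups for these, and from day 3 to day 7 they rose by 3.87 (adjusted p = 0.00093) and 2.81 (adjusted p = 0.00029).

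Nos2, the inducible nitric oxide synthase, was at 3.5, 2.11, 2.81, 3.27 and 12.5 CPM at day 0, with d0_KO_60 highest, and at 41.4 to 192 CPM (median 124) at day 7. Its log2 fold change was 4.55 ± 0.53 (SE, adjusted p = 9.1e-06), without overlap, and 5.23 without d0_KO_60. Duox2, the peroxide-producing oxidase of the apical membrane, was at 249, 125, 209.9, 291 and 297 CPM and 292 to 707 CPM (median 404) and rose by 1.00 (adjusted p = 0.0033) with a slight overlap, and its maturation factor Duoxa2 rose by 2.77 (adjusted p = 0.00013). Lcn2, a siderophore-binding protein of neutrophils and inflamed epithelium, was at 0, 0.117, 0, 0.0961 and 0.298 CPM and 0.845 to 146 CPM (median 8.04), a log2 fold change of 8.18 ± 1.94 (SE, adjusted p = 0.0028). Slpi, a secreted protease inhibitor, rose by 4.78 (adjusted p = 3e-06). Chil3 and Hp, a chitinase-like protein and haptoglobin of myeloid cells, rose by 8.23 (adjusted p = 0.001) and 8.10 (adjusted p = 0.00011). Saa3, an acute phase apolipoprotein, rose by 5.41 (adjusted p = 0.00029), whereas Saa1, which has near-identical neighbours that can share its reads, had a log2 fold change of 0.38 (adjusted p = 0.28) and did not pass. Saa2, one of those neighbours, was at 0.318, 1.41, 0.125, 0.0961 and 4.07 CPM at day 0, where d0_KO_60 was highest, and at 0.151 to 0.587 CPM (median 0.228) at day 7, and fell by 2.09 (adjusted p = 0.026). Without d0_KO_60 its log2 fold change was -0.70 (adjusted p = 0.4), which did not pass. Pigr, which carries IgA across the epithelium, had a log2 fold change of 0.16 (adjusted p = 0.29), also short of the test. Without d7_KO_420 the values were 6.04 for Lcn2, 6.70 for Chil3, 7.28 for Hp and 4.75 for Saa3. Leaving out 1 day 0 library raised some, with 9.19 for Lcn2 without d0_KO_60, 8.96 for Chil3 without d0_KO_24 and 9.69 for Hp without d0_KO_54.

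Beside Saa2, Ang4 and Itln1, secreted products of Paneth and goblet cells, fell, with log2 fold changes of -4.16 (adjusted p = 0.0015) and -3.59 (adjusted p = 0.0018). Ang4 was at 148, 4.69, 13, 687 and 36.7 CPM at day 0, a wide spread, and at 4.94 to 13 CPM (median 11.9) at day 7, and the groups overlapped. Without d0_KO_54, the highest, the values were -2.35 and -1.84. Ang4 and Itln1 have close paralogs that may share reads.

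Genes of the STAT3 and NF-kB feedback list rose in 9 of 17 cases, with a median of 0.72. Socs3, the inhibitor induced by STAT3, was at 23, 13, 10.5, 18.6 and 14.3 CPM at day 0 and at 98.5 to 223 CPM (median 115) at day 7, a log2 fold change of 3.19 ± 0.27 (SE, adjusted p = 4.9e-07). Nfkbia, the inhibitor of NF-kB, was at 125, 120.4, 99, 107 and 180.2 CPM and 190.1 to 1142 CPM (median 328), a log2 fold change of 1.63 ± 0.42 (SE, adjusted p = 0.0046). Both groups were apart for each, and d7_KO_420 was highest for each. Stat3 itself rose by 0.72 (adjusted p = 0.0001) and the NF-kB cofactor Bcl3 by 1.75 (adjusted p = 3.9e-07). The windows of Reg3b and Socs3 are shown because both genes are known STAT3 targets and each holds one STAT motif, TTCNNNGAA, in capitals, 129 bases before the start of Reg3b on the plus strand and 154 before that of Socs3 on the minus strand.
Reg3b, chr6:78370725-78370884: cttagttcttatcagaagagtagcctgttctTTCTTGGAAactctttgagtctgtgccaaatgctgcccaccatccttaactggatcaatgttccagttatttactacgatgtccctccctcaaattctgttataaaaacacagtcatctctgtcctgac
Socs3, chr11:117969367-117969546: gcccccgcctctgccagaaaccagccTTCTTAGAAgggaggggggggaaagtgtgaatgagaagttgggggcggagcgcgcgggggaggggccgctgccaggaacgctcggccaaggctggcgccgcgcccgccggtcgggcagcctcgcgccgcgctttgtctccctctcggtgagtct
This motif is palindromic at its ends, was searched on both strands and was present in 8.3% of all windows. Of genes with a window, 3 of 15 on the feedback list (20%) and 4 of 23 on the antimicrobial list (17.4%) held it.

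Genes of antigen presentation by MHC class II rose without exception. All 8 were tested, 8 rose, and the median was 3.24. Between day 3 and day 7, all 8 rose as well, with a median of 2.13, or 2.23 without the library labelled d3_KO_345. Cd74, the invariant chain, was at 18.1, 2.93, 10.4, 12 and 31.7 CPM at day 0 and at 175 to 585 CPM (median 247) at day 7, a log2 fold change of 4.37 ± 0.53 (SE, adjusted p = 1.3e-05). H2-Aa, the alpha chain of I-A, was at 7.76, 1.53, 4.37, 6.15 and 16.4 CPM and 47.7 to 134 CPM (median 76.8), a log2 fold change of 3.59 ± 0.46 (SE, adjusted p = 2.1e-05). Ciita, the master coactivator of the class, was at 1.65, 0.821, 1.43, 1.15 and 3.77 CPM and 5.42 to 23.9 CPM (median 15), a log2 fold change of 3.05 ± 0.45 (SE, adjusted p = 7.6e-05). In all 3 genes the groups were apart, with d0_KO_32 lowest. The partners H2-Ab1 and H2-Eb1 rose by 3.23 (adjusted p = 2e-05) and 3.52 (adjusted p = 1.6e-06). Macrophages and dendritic cells also carry these genes, and the macrophage markers moved with them as given above.

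The class II genes with a window hold the letters GATTGG, the core of the Y box that NF-Y binds in class II promoters. These letters were searched on both strands. All 5 list members with a window held them in at least 1 window (100%), a share of genes, beside 16.1% of all windows. A match describes letters and is not a measured binding site. In H2-Aa and H2-Eb1 the longer form CTGATTGG was present (4.1% of all windows). The promoters are shown because these genes moved together, with each match to GATTGG or its reverse complement in capitals.
H2-Aa, chr17:34287824-34287953, minus strand: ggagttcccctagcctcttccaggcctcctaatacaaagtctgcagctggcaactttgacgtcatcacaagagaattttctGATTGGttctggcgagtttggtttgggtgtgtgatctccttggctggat
H2-Eb1, chr17:34305737-34305866, plus strand: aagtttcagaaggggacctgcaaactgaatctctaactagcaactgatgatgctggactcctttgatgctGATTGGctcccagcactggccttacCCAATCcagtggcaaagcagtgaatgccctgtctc
H2-DMb1, chr17:34153061-34153190, plus strand: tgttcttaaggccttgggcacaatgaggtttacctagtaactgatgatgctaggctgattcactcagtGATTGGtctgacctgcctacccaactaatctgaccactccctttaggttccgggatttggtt
H2-DMb2, chr17:34145119-34145248, plus strand: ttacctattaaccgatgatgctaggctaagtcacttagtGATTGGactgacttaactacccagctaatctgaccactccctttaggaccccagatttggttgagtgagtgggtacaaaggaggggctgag
The match on the strand of the gene starts 49, 60, 62 and 91 bases before the start, in that order, and H2-Eb1 has a second match, on the other strand, from 35 bases before it. H2-DMa, not shown, has 2 windows, of which 1 holds a match, 199 bases before the start.

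More interferon-stimulated genes rose than fell. Of 24 tested, 15 rose (17 without d0_KO_32) and 2 fell, with a median of 1.02. Iigp1, Igtp and Gbp2, GTPases induced by interferon gamma that attack vacuoles of intracellular microbes, rose by 5.62 (adjusted p = 1.3e-05), 3.34 (adjusted p = 2.4e-05) and 4.04 (adjusted p = 0.00023). Iigp1 was at 1.53, 0.117, 2.06, 0.192 and 4.36 CPM at day 0 and at 24.9 to 149 CPM (median 95.5) at day 7. Gbp2 was at 7.51, 3.05, 5.8, 4.52 and 15.9 CPM and 33.6 to 422.3 CPM (median 91.1). Neither overlapped, and the values were 6.22 for Iigp1 without d0_KO_60 and 3.28 for Gbp2 without d7_KO_421. Ido1, the interferon-induced enzyme of tryptophan breakdown, was at 1.91, 0.587, 2.68, 2.11 and 4.46 CPM and 31.2 to 318 CPM (median 70.9) and rose by 5.48 (adjusted p = 1.7e-05). In d7_KO_420, the library with the highest S100a8 and S100a9, Iigp1, Gbp2, Ido1, Cd74 and Ciita were at their lowest of the 7 day 7 libraries. H2-Aa, H2-Ab1, H2-Eb1, Ifit2, Isg15, Irf7 and Rsad2 were not lowest there, and the neutrophil gene Csf3r was not highest. Ifit2, which blocks translation of viral RNA, rose by 3.34 (adjusted p = 3.4e-05) and Isg15, a ubiquitin-like modifier, by 1.56 (adjusted p = 0.0055). The genes that fell were the transcription factor Irf7 and the antiviral enzyme Rsad2, with log2 fold changes of -0.83 (adjusted p = 0.0056) and -1.29 (adjusted p = 0.019), and from day 3 to day 7 their values were 0.07 (adjusted p = 0.88) and 0.04 (adjusted p = 0.96). Rsad2 did not pass without d0_KO_60 (adjusted p = 0.075).

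In WT mice the class II list had 3 of 8 genes (37.5%) higher at day 7 than at day 0, with a median of 1.31. The interferon list had 2 of 24 (8.33%), and 28.2% of all genes were higher. One WT day 0 library, d0_WT_41, had high levels of these genes. Cd74 was at 21.5, 214, 16.9 and 23.3 CPM in the 4 WT day 0 libraries and at 107 to 331 CPM (median 134) at WT day 7, and Iigp1 at 0.787, 46.9, 2.46 and 4.43 CPM and 4.72 to 60.6 CPM (median 34.9). Without d0_WT_41, all 8 class II genes were higher in WT mice at day 7, with a median of 2.70. In that fit 8 of 24 interferon genes were higher, beside 3997 of 17334 genes in all. The KO change minus the WT change was 3.11 for Cd74 (adjusted p = 0.17), 2.87 for Ciita (adjusted p = 0.17) and 4.58 for Iigp1 (adjusted p = 0.17), and it did not pass the test. With the DESeq2 Wald test the differences for Ciita and Iigp1 passed, at 2.86 (adjusted p = 0.021) and 4.59 (adjusted p = 0.034), as they did without d7_KO_420, at 2.98 (adjusted p = 0.046) and 4.71 (adjusted p = 0.049). Without d0_WT_41 the 3 differences were 1.35, 1.67 and 2.24 (adjusted p = 0.51, 0.47 and 0.51).

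**Figure D4:**
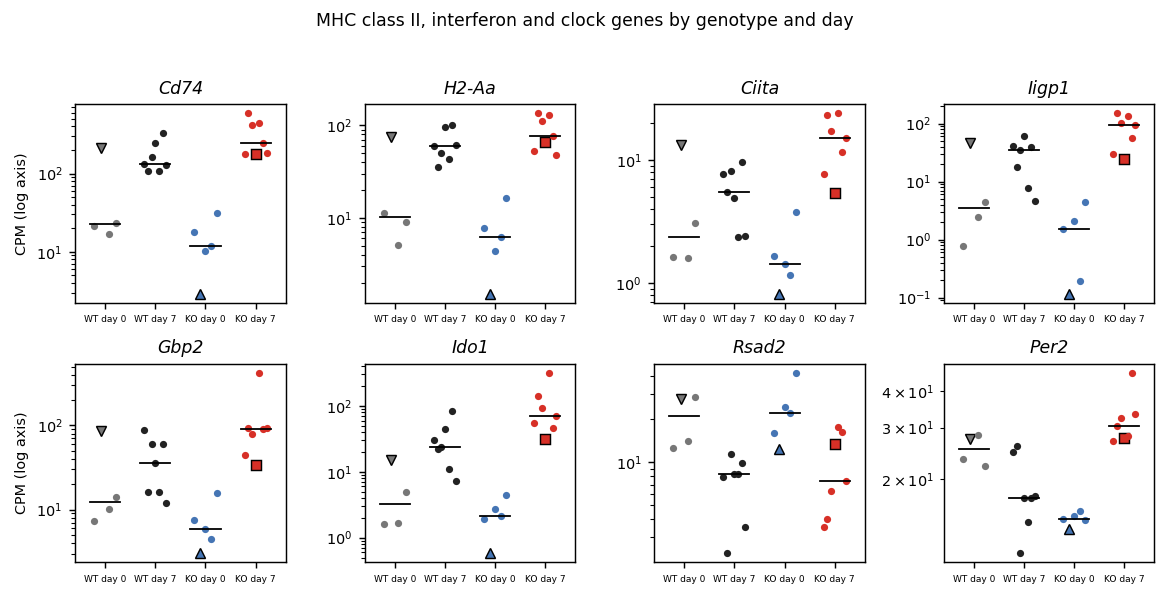
CPM on a log axis of class II, interferon and clock genes in each library of WT and KO mice at day 0 and day 7, with group medians as black lines. The upright triangle is d0_KO_32, the inverted triangle d0_WT_41 and the square d7_KO_420. Cd74 reaches 214 CPM in d0_WT_41 and at most 31.7 CPM in KO day 0 libraries, and Per2 is higher at day 7 than at day 0 in KO libraries without overlap.

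Genes of epithelial repair rose. On the list of genes of the fetal-like regenerating epithelium, 24 of 25 were tested, 17 rose and 0 fell, with a median of 1.22. Ly6a, also known as Sca-1 and a marker of regenerating crypts, was at 46.9, 71.2, 32.4, 50.3 and 54.1 CPM at day 0 and at 270.4 to 665 CPM (median 600.3) at day 7. The log2 fold change was 3.31 ± 0.28 (SE, adjusted p = 3.7e-07), without overlap. Ly6d, a related surface protein, rose by 6.13 (adjusted p = 1.3e-06) and Anxa1, an anti-inflammatory annexin, by 1.13 (adjusted p = 0.0016). Ccnd1, the cyclin of entry into the cell cycle, rose by 1.31 (adjusted p = 0.0011), although d7_KO_420 was within the day 0 range at 61.2 CPM. Clu, which marks revival stem cells, had a log2 fold change of 0.37 (adjusted p = 0.3) and did not pass. From day 3 to day 7, 5 members of this list rose (7 without the library labelled d3_KO_345) and 1 fell.

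Matrix remodelling genes rose in 11 of 16 cases and fell in 1. Mmp9, the gelatinase of neutrophils, rose by 6.69 (adjusted p = 0.00036) and Mmp13, a collagenase, by 6.23 (adjusted p = 0.00025). The values were 5.58 for Mmp9 without d7_KO_420 and 7.99 for Mmp13 without d0_KO_24. Mmp3 and Mmp10, stromelysins, had 3 or fewer counts over the day 0 libraries, with pooled ratios of 54.9 (95% exact interval 18.7 to 266) and 69.1 (95% exact interval 19.1 to 572). Timp1, an inhibitor of these enzymes, rose by 5.11 (adjusted p = 0.00098), whereas Timp3, a matrix-bound inhibitor, fell by 1.38 (adjusted p = 0.0025).

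Goblet cell genes were lower. Of 17 tested, 8 fell (47.1%, against 26.6% of all genes) and 1 rose, with a median of -0.60. Without d0_KO_32, which was low in these genes, 13 fell. Muc2, the gel-forming mucin of the colon, was at 11835, 6717, 25775, 8633 and 9243 CPM at day 0 and at 2039 to 4930.2 CPM (median 3174) at day 7, a log2 fold change of -1.93 ± 0.31 (SE, adjusted p = 0.00015). Every day 7 library was below every day 0 library. Clca1, a protease that loosens mucus, was at 4436, 126, 2337, 9069.8 and 3132 CPM and 319 to 629 CPM (median 396), a log2 fold change of -3.13 ± 0.61 (SE, adjusted p = 0.00071), and Fcgbp, a mucus cross-linking protein, at 9478, 344.8, 7203, 12772 and 7203 CPM and 924 to 1927 CPM (median 1559), a log2 fold change of -2.37 ± 0.53 (SE, adjusted p = 0.0018). Both overlapped through d0_KO_32 alone, and Clca1 was at -2.52 without d0_KO_54. Tff3, a trefoil peptide, had a log2 fold change of -0.53 (adjusted p = 0.21), and one of -0.79 (adjusted p = 2.8e-05) without d0_KO_32. Between day 3 and day 7, the log2 fold changes were -2.66 (adjusted p = 0.00013) for Clca1, -1.39 (adjusted p = 0.00039) for Fcgbp and -0.48 (adjusted p = 0.15) for Muc2, of which the last did not pass.

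Of the secreted epithelial products, the mucosal pentraxin Mptx1 (chr1:174330518-174332873) of the colon fell by the widest margin of those named here. Its close copy Mptx2 can share its reads. Mptx1 was at 1434, 12.7, 492, 4474 and 277 CPM at day 0 and at 0.641 to 18.5 CPM (median 2.64) at day 7, a log2 fold change of -8.05 ± 1.26 (SE, adjusted p = 0.00012), and the lowest day 0 library, d0_KO_32, overlapped with day 7. At day 3 it was at 269 to 5451 CPM (median 766), and the log2 fold change from day 3 to day 7 was -8.16 (adjusted p = 6.9e-05). Itih2, a hyaluronan-binding serum protein of the inter-alpha-trypsin inhibitor family, was at 8.15, 1.17, 4.43, 2.4 and 5.65 CPM, 3.96 to 18.5 CPM (median 8.23) and 0.0205 to 0.699 CPM (median 0.133) at days 0, 3 and 7. It fell, with log2 fold changes of -4.56 (adjusted p = 3.4e-05) from day 0 and -5.58 (adjusted p = 1.2e-05) from day 3, without overlap between day 0 and day 7. Without d0_KO_54 the value against day 0 was -6.78 for Mptx1, and without d7_KO_421 the values were -8.85 for Mptx1 and -5.31 for Itih2. The other 4 members of the list, Mptx2 among them, did not pass the filter on low counts.

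Colonocyte genes moved both ways. Of 14 tested, 4 rose (28.6%, against 27.7% of all genes) and 6 fell (42.9%, against 26.6%), so the share that rose was near that of all genes. Aqp8, a water channel of surface colonocytes, was at 444, 189, 266, 345.1 and 919.9 CPM at day 0 and at 36.5 to 135 CPM (median 57.8) at day 7, a log2 fold change of -2.65 ± 0.39 (SE, adjusted p = 7.4e-05). Slc26a3, the chloride and bicarbonate exchanger whose loss causes congenital diarrhoea, was at 834, 661, 649, 596 and 1165 CPM and 218 to 365 CPM (median 269), a log2 fold change of -1.45 ± 0.17 (SE, adjusted p = 8.7e-06). Sycn, a granule protein, was at 288, 172, 147, 194 and 227 CPM and 10.2 to 38.6 CPM (median 15.4), a log2 fold change of -3.34 ± 0.33 (SE, adjusted p = 2e-06). Aqp8 and Slc26a3 did not overlap between the groups, and Sycn was picked without overlap. Guca2a, guanylin, fell by 0.88 (adjusted p = 0.0036), with overlap. Car1, carbonic anhydrase 1, was at 3529, 2962, 4234, 3862 and 4155 CPM and 5587 to 11663 CPM (median 7991) and rose by 1.05 (adjusted p = 0.00039), without overlap.

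Of 25 genes of water and ion transport, 4 rose and 8 fell, 16% and 32% against 27.7% and 26.6% of all genes, and 10 fell without d7_KO_420. Outside that list, Trpm6, the magnesium channel of the colon, was at 205, 99.8, 195, 143 and 279 CPM at day 0 and at 14.1 to 34.2 CPM (median 23.7) at day 7 and fell by 3.04 (adjusted p = 2.7e-07). Slc34a2, a phosphate transporter, was at 64.1, 23.1, 42.6, 29.4 and 93.5 CPM and 0.885 to 3.45 CPM (median 1.79) and fell by 4.76 (adjusted p = 4.2e-07). On it, Hsd11b2, which protects the mineralocorticoid receptor from glucocorticoids, rose by 1.35 (adjusted p = 1e-05). Hsd11b2 was apart between the groups, and Trpm6 and Slc34a2 were picked without overlap.

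**Figure D5:**
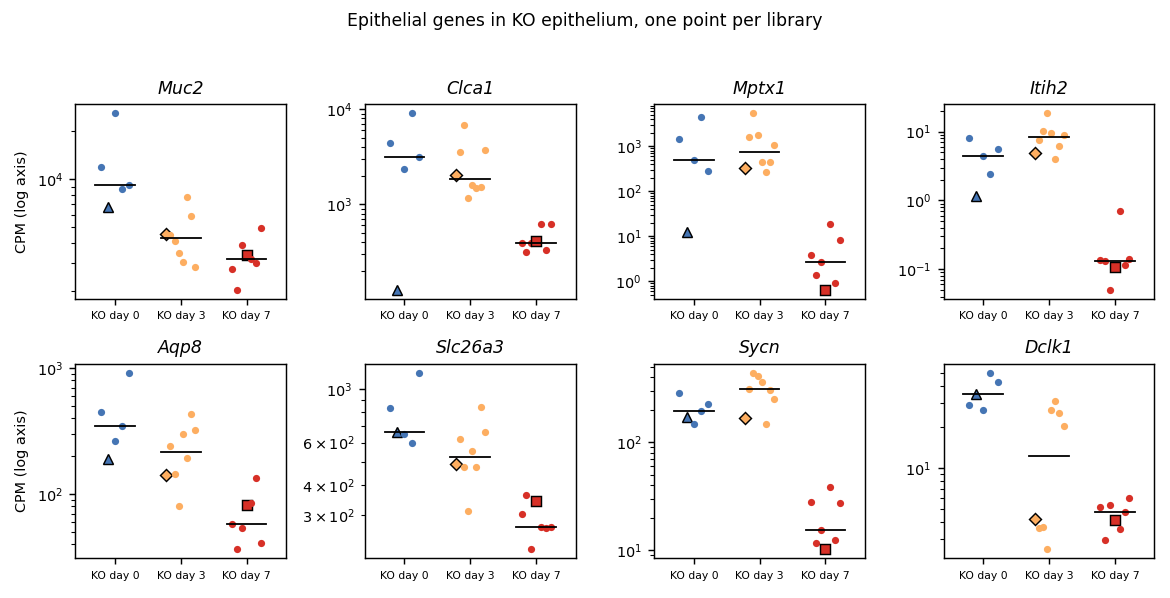
CPM on a log axis of 8 epithelial genes in each KO library at day 0, day 3 and day 7, with group medians as black lines and values below 0.05 CPM drawn at 0.05. The triangle is d0_KO_32, the square d7_KO_420 and the diamond the library labelled d3_KO_345. Mptx1 has a median of 492 CPM at day 0 and 2.64 CPM at day 7. Dclk1, picked without overlap, is lower in all 7 day 7 libraries than in the 5 day 0 libraries.

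Tuft cells, the chemosensory cells that release interleukin-25, showed the lowest median of the epithelial cell type lists with at least 5 tested members. Of 13 genes tested, 9 fell (69.2%, against 26.6% of all genes) and 1 rose, with a median of -1.43. Dclk1, a kinase that marks tuft cells, was at 28.9, 34.8, 26.5, 50.3 and 42.5 CPM at day 0 and at 2.97 to 5.99 CPM (median 4.8) at day 7. The log2 fold change was -3.02 ± 0.20 (SE, adjusted p = 4.4e-08), and lack of overlap was a condition by which Dclk1 was picked. At day 3 Dclk1 was at 4.22, 3.65, 3.72, 2.54, 26.9, 31.3, 25.3 and 20.3 CPM in the 8 libraries, which formed a low and a high set of 4 libraries each. Trpm5, the cation channel of their taste-like signalling, fell by 2.09 (adjusted p = 3.6e-06). The gene that rose was Alox5ap, the leukotriene synthesis protein that neutrophils also carry, by 3.28 (adjusted p = 0.0026), or 2.46 without d7_KO_420. From day 3 to day 7, 5 of 13 fell, with Dclk1 at -1.72 (adjusted p = 0.032), and without the library labelled d3_KO_345 8 fell.

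Hormone-producing enteroendocrine cells differed from tuft cells in direction. Of 17 genes tested, 7 rose and 1 fell. Chgb, a granule protein of these cells, rose by 1.14 (adjusted p = 0.0059), and from day 3 to day 7, 1 member rose and 1 fell.

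Stem cell genes fell in 6 of 15 cases (40%, against 26.6% of all genes) and rose in 1. Axin2, a feedback target of Wnt signalling, was at 46.02, 57, 39.3, 38.3 and 44.9 CPM at day 0 and at 0.721 to 22.5 CPM (median 13.5) at day 7, a log2 fold change of -1.83 ± 0.51 (SE, adjusted p = 0.0075), with d7_KO_420 lowest and the other 6 apart from day 0 as well. Lgr5, the receptor that defines crypt base stem cells, was at 8.34, 8.92, 5.43, 4.71 and 6.64 CPM and 0.16 to 9.53 CPM (median 3.68), and its log2 fold change of -0.69 (adjusted p = 0.37) did not pass. Proliferation genes fell in 11 of 27 cases (40.7%, against 26.6%) and rose in 1. Mki67, the antigen of cycling cells, was at 249, 302, 255, 194 and 245 CPM and 65.9 to 181 CPM (median 147) and fell by 0.87 (adjusted p = 0.0019), and Top2a, the topoisomerase of dividing cells, fell by 1.05 (adjusted p = 0.0021). Neither overlapped. Without d0_KO_32, the day 0 library with the highest Mki67, 7 proliferation genes fell (25.9%), a share below the 28.2% of all genes that fell without it, and from day 3 to day 7, 1 did.

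Genes that mark position along the gut also differed. Hoxb13, a homeobox gene of the distal colon, was at 151, 45.4, 113, 128 and 113 CPM at day 0, 60.6 to 253 CPM (median 154) at day 3 and 3.39 to 53.8 CPM (median 23.1) at day 7, and fell by 2.00 (adjusted p = 0.003). Hoxa13 fell by 1.21 (adjusted p = 0.0027), without overlap. Hoxd13 was at 0.382, 0, 1.12, 0.384 and 0.0992 CPM at day 0, 11.6 to 59.6 CPM (median 21.2) at day 3 and 0.501 to 5.29 CPM (median 1.66) at day 7, so it was higher at day 7 than at day 0, with a log2 fold change of 2.47 (adjusted p = 0.013), and lower than at day 3, with one of -3.54 (adjusted p = 0.00025). Without d0_KO_53 the first of these was 3.35. Whether the stretch of colon sampled differed between days was not tested.

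Of 21 tested genes of small intestinal enterocytes, 10 fell and 1 rose. Apoa1, an apolipoprotein of chylomicrons, was at 2.99, 1.06, 18.6, 0.865 and 75 CPM at day 0 and at 0.0614 to 0.454 CPM (median 0.273) at day 7. Anpep, an aminopeptidase of the brush border, was at 5.22, 3.28, 25.1, 4.71 and 103 CPM and 1.49 to 5.89 CPM (median 3.64). Libraries d0_KO_53 and d0_KO_60 were highest in both genes. The log2 fold changes were -6.26 (adjusted p = 0.00017) and -2.91 (adjusted p = 0.004), and in WT mice they were -1.18 (adjusted p = 0.085) and 0.41 (adjusted p = 0.26). Without d0_KO_60 the KO values were -4.53 and -1.37. The KO change minus the WT change was -4.99 (adjusted p = 0.17) and -3.27 (adjusted p = 0.17), short of the test. Both passed with the DESeq2 Wald test, at -5.10 (adjusted p = 0.015) and -3.32 (adjusted p = 0.035), and Apoa1 did without d7_KO_420, at -5.18 (adjusted p = 0.049).

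Genes of fuel metabolism moved by smaller amounts. Of 31 genes of fatty acid oxidation and ketogenesis, all tested, 22 rose (71%) and 1 fell, with a median of 0.34 against 0.02 for all genes. Acadl, the long-chain acyl-CoA dehydrogenase, was at 86.2, 71.2, 74.8, 70.9 and 80.3 CPM at day 0 and at 252 to 471 CPM (median 299.7) at day 7, a log2 fold change of 2.06 ± 0.14 (SE, adjusted p = 5.4e-08). The groups were apart, and it rose by 0.72 (adjusted p = 0.00066) from day 3. Ppargc1a, a coactivator of mitochondrial biogenesis, fell by 0.53 (adjusted p = 0.0076).

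Glycolytic genes other than the hexokinases rose in 16 of 28 cases (57.1%) and fell in 5, or in 3 without d0_KO_32. Pfkfb3, which makes the activator of phosphofructokinase, was at 1.78, 0.938, 1.37, 2.98 and 3.27 CPM at day 0 and at 8.2 to 35.1 CPM (median 16.7) at day 7 and rose by 3.05 (adjusted p = 3.3e-05). Slc2a3, the high-affinity glucose transporter of neutrophils and neurons, rose by 3.78 (adjusted p = 0.0019), and d7_KO_420 was highest at 20.7 CPM, without which it rose by 2.81. Ldha, which turns pyruvate into lactate, rose by 0.49 (adjusted p = 0.0027). Gapdh and Eno1, which have pseudogene copies that can take some reads, rose by 1.11 (adjusted p = 1.3e-05) and 0.98 (adjusted p = 2.8e-05). Eno3, the muscle form of enolase, fell by 1.96 (adjusted p = 0.0013), with overlap. Between day 3 and day 7, 6 glycolytic genes rose and 5 fell.

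Tricarboxylic acid cycle genes rose in 15 of 22 cases (18 without d0_KO_32) and fell in 2, yet from day 3 to day 7, 1 rose and 2 fell. Mdh2, mitochondrial malate dehydrogenase, rose by 1.00 (adjusted p = 1.5e-06) against day 0 and had a log2 fold change of 0.06 (adjusted p = 0.64) against day 3. Of 77 tested nuclear genes of oxidative phosphorylation, 25 rose (32.5%) and 8 fell (10.4%), shares that stand beside 27.7% and 26.6% for all genes. Without d0_KO_32, 39 rose. From day 3 to day 7, 0 rose and 2 fell. Cox5a, a subunit of cytochrome oxidase, and Atp5g3, a subunit of ATP synthase, rose by 0.79 (adjusted p = 1.2e-05) and 0.93 (adjusted p = 1.7e-05) against day 0 and had log2 fold changes of 0.11 (adjusted p = 0.44) and 0.06 (adjusted p = 0.64) against day 3.

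Of 26 genes of cholesterol and fatty acid synthesis, 10 fell (38.5%) and 3 rose, and 13 fell without d7_KO_420. Scd1, the desaturase of fatty acids, fell by 1.26 (adjusted p = 1.3e-05) without overlap, and Insig1 and Fasn, the sterol sensor and fatty acid synthase, fell with log2 fold changes of -1.25 (adjusted p = 0.003) and -0.51 (adjusted p = 0.01) and with overlap.

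Cell death effectors rose in 19 of 33 cases (57.6%; 17 without d0_KO_32) and fell in 1, or in 3 without d7_KO_420, with a median of 0.52. Ripk3, the kinase of necroptosis, was at 21.1, 23, 25.3, 31.1 and 31.8 CPM at day 0 and at 58 to 106 CPM (median 99.1) at day 7, a log2 fold change of 1.73 ± 0.16 (SE, adjusted p = 1.2e-06), and its substrate Mlkl rose by 1.00 (adjusted p = 6.9e-06). Bak1, a pore-forming protein of the outer mitochondrial membrane, was at 72.2, 80.0, 57.1, 72.7 and 61.6 CPM and 141 to 203 CPM (median 165), a log2 fold change of 1.24 ± 0.11 (SE, adjusted p = 8.6e-07), and its relative Bax rose by 0.64 (adjusted p = 3e-05). Groups were apart for each. Casp8, the initiator of death receptor signalling, rose by 0.82 (adjusted p = 1.1e-05), Casp1, the inflammatory caspase, by 0.52 (adjusted p = 0.00016) and Gsdmd, the pore former it cleaves, by 0.87 (adjusted p = 0.00013). Nlrp3, an inflammasome sensor of myeloid cells, rose by 6.51 (adjusted p = 1.6e-05). Between day 3 and day 7, 10 members rose and 3 fell.

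Of the 10 genes of the mitochondrial permeability transition and VDAC, 7 rose and 0 fell. Ppif, which encodes cyclophilin D, the regulator of the permeability transition, was at 73.9, 63.9, 68.7, 68.2 and 65.9 CPM at day 0 and at 95 to 132 CPM (median 105) at day 7. The log2 fold change was 0.65 ± 0.09 (SE, adjusted p = 2.7e-05), without overlap, and between day 3 and day 7 it was -0.21 (adjusted p = 0.06). Vdac1 and Vdac2, channels of the outer membrane to which hexokinases bind, rose by 0.54 (adjusted p = 0.00012) and 0.42 (adjusted p = 0.0054) against day 0 and had log2 fold changes of -0.03 (adjusted p = 0.85) and 0.12 (adjusted p = 0.54) against day 3. In WT mice Ppif rose by 1.25 (adjusted p = 2.2e-06), and the KO change minus the WT change was -0.56 (adjusted p = 0.17), short of the test. It passed with the DESeq2 Wald test, at -0.58 (adjusted p = 0.022), and without d7_KO_420, at -0.64 (adjusted p = 0.035).

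The change from day 0 to day 7 was tested for a difference between KO and WT mice in 18299 genes, and 1 (0.00546%) passed, with 2473 at an unadjusted p under 0.05. That gene was Per2, a repressor of the circadian clock. Per2 was at 14.6, 13.6, 15, 15.6 and 14.6 CPM in KO day 0 libraries and at 27.1 to 46.1 CPM (median 30.4) at KO day 7, and at 23.4, 27.4, 28.3 and 22.3 CPM and 11.3 to 26 CPM (median 17.4) in WT mice. It rose by 1.11 (adjusted p = 9.3e-06) in KO mice and fell by 0.49 (adjusted p = 0.047) in WT mice, a difference of 1.64 ± 0.24 (SE, adjusted p = 0.0087). Groups were apart in KO mice and overlapped in WT mice, and without d0_KO_32 or without d0_WT_41 no gene passed, with Per2 at 1.57 (adjusted p = 0.053) and 1.57 (adjusted p = 0.06). The DESeq2 Wald test called 177 genes, and edgeR called 278 without d7_KO_420. Of 15 clock genes tested, 8 rose and 4 fell (6 without d7_KO_420) in KO mice, and from day 3 to day 7, 0 rose and 2 fell. Nr1d1, the nuclear receptor that represses Arntl, rose by 1.67 (adjusted p = 0.0018) and Arntl, which encodes the activator BMAL1, fell by 0.88 (adjusted p = 0.00046). Times of day at which tissue was taken are not given in the labels.

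The 12 genes that led the decreases were Gm10800, Lars2, Apoa1, Dnah5, Slc34a2, Ahnak2, Col8a1, Fndc5, Sycn, Dpysl2, Trpm6 and Dclk1. Lars2, the mitochondrial leucyl-tRNA synthetase, was at 2299, 11870.3, 6050.5, 10878 and 7077 CPM at day 0, 69.6 to 612 CPM (median 81.2) at day 3 and 83 to 119 CPM (median 90.3) at day 7. Gm10800, a predicted gene, was at 2.48, 84.6, 1.75, 2.31 and 4.36 CPM at day 0 and had 3 or fewer counts over the day 7 libraries, a pooled ratio of day 0 to day 7 of 2377 (95% exact interval 656 to 19660.2). Most of these counts were in d0_KO_32. WT day 0 libraries were also high in Lars2, at 1689.5, 1873, 1219 and 3499 CPM. These values followed the day 0 libraries in both genotypes, where mitochondrial ribosomal RNA and small RNA shares were high as well, and their part was not tested.

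For the others, values against day 3 are given as well, from a comparison that shares the day 7 libraries and so is not independent. Dnah5, a dynein heavy chain of cilia, was at 11.7, 14.1, 7.98, 15.5 and 14.7 CPM at day 0 and at 0.267 to 0.614 CPM (median 0.402) at day 7 with log2 fold changes of -4.92 (adjusted p = 1.8e-09) against day 0 and -2.40 (adjusted p = 0.006) against day 3. For Ahnak2, a large scaffold protein, they were -4.06 (adjusted p = 6.3e-07) and -2.90 (adjusted p = 8.6e-06). For Col8a1, a short-chain collagen, they were -3.44 (adjusted p = 1.1e-07) and -1.38 (adjusted p = 0.005), and for Fndc5, the irisin precursor, -3.36 (adjusted p = 2.1e-06) and -2.74 (adjusted p = 0.00017). All 4 passed against day 3, and passing against day 0 was a condition by which they were picked. At day 3, Dnah5 had 38, 12, 29 and 26 counts in d3_KO_345, d3_KO_349, d3_KO_350 and d3_KO_351. In d3_KO_385, d3_KO_387, d3_KO_388 and d3_KO_392 it had 173, 141, 163 and 104, beside 14 to 30 in the day 7 libraries. Dpysl2, a regulator of microtubules, was at 80.4, 55.8, 85.8, 96 and 76.5 CPM, 8.42 to 13.3 CPM (median 9.67) and 5.85 to 10.3 CPM (median 8.56) at days 0, 3 and 7. It fell by 3.30 (adjusted p = 1.9e-09) against day 0 and had a log2 fold change of -0.39 (adjusted p = 0.055) against day 3. Long genes were lower at day 7, with a median of -0.21 over the 1609 tested genes whose models span 8380 or more bases, against -0.02 from day 3 to day 7.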

How the data were processed

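Paired-end RNA-seq of a stranded mRNA kit was counted per gene by the authors. Per the submitters' processing notes, reads were trimmed with Trim Galore and aligned to GRCm38 with STAR. The deposited counts are whole reads per gene from featureCounts, version 1.6.2 per the file headers and 1.5.2 per the processing notes, without strand. The 2 lane files of each of the 38 samples were summed over 46078 genes, and lanes correlated at 0.989 or above on the log scale.

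Each comparison was fitted in edgeR 4.0.16 (R 4.3.3) with TMM scaling, filterByExpr and the quasi-likelihood test over its own groups, with Benjamini-Hochberg adjustment over all genes fitted and a threshold of 0.05. Every adjusted p in the text is from this test unless DESeq2 is named. Each SE of a log2 fold change was derived as its absolute value divided by the square root of the quasi-likelihood F. The interaction used WT and KO libraries of day 0 and day 7. Hist*, mt- and noncoding small RNA genes were dropped from counts after the fit. A count of 3 in a library corresponds to 0.172 to 0.286 CPM at day 0 and 0.0495 to 0.0797 CPM at day 7. Intervals and floors cover counting error only. The edgeR test of KO day 7 against KO day 0 was run on simulated counts with the same dispersion for every gene. That simulation had no library standing apart and no difference in kind of library, and it covered neither the interaction nor DESeq2. Alternatives were DESeq2 (1.42.0), DESeq2 size factors, other filters, 1 lane, robust dispersions, removal of the dropped classes before the fit, thinned depth, a minimum change and leaving out each library.

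The genes that lead each direction were the 12 protein-coding genes with the largest log2 fold change, a mean log2 CPM of at least 2, an adjusted p under 0.05 and no overlap. From each list, up to 3 called members in each direction with the highest level, defining members and members said not to pass could be named. Members and lists were chosen with earlier results of these data known, and other members named were chosen after their values were seen. Promoter letters are from RefSeq (GRCm38.p6), matched by symbol. Some members of the lists are not reported here by name.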

Additional observations from a re-analysis of the deposited data

Results flagged for a closer look

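Within-group extremes were looked for in 294 groups of gene values and 84 groups of list means, and 27 and 8 were found in which the highest or lowest library lay far from the rest relative to the range of its group. Chance alone gives about 1 in 20 groups. The library d0_KO_32 held 12 of them and d7_KO_420 held 10.

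In d0_KO_32, Hoxb13 was at 45.4 CPM, Ly6g at 1.41 CPM, Fcgbp at 344.8 CPM and Tff3 at 56.5 CPM, each the lowest of the day 0 group, whereas Top2a at 270.3 CPM and Gm10800 at 84.6 CPM were the highest. Its mean log2 CPM was 6.30 over the goblet cell list, -0.95 over the erythrocyte list, 0.42 over the sex-linked genes, -1.10 over the matrix list, -2.18 over the pentraxin list and 5.70 over the proliferation list.

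In d7_KO_420, Ccnd1 at 61.2 CPM and Axin2 at 0.721 CPM were the lowest of the day 7 group. Cxcl3 at 87.9 CPM, Stat3 at 273 CPM, Nfkbia at 1142 CPM, Slc2a3 at 20.7 CPM, Insig1 at 157 CPM and Arntl at 70.7 CPM were the highest there. Its mean log2 CPM was 7.22 over the fatty acid oxidation list and 4.83 over the clock list.

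The library d7_KO_421 was highest for Gbp2 at 422.3 CPM, Timp3 at 6.83 CPM, Itih2 at 0.699 CPM and Eno3 at 33.5 CPM. The highest day 0 value was in d0_KO_60 for Cxcl10 at 1.49 CPM and Nos2 at 12.5 CPM, in d0_KO_54 for Ifitm6 at 0.0961 CPM and in d0_KO_24 for Il6 at 0.0636 CPM. Ifitm6 and Il6 each had 1 count in that library and 0 in the other day 0 libraries. For them the flag follows from a single read, and the chance rate above does not apply. Vdac2 at 286 CPM and Mlkl at 18.9 CPM in d0_KO_53 were the lowest of day 0. At day 7, Mmp3 at 0.141 CPM in d7_KO_423 was apart from the rest, as were Per2 at 46.1 CPM in d7_KO_422 and Lars2 at 119 CPM in d7_KO_367.

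The change of Per2 from day 0 to day 7 differed between KO and WT mice by 1.64 on the log2 scale in the test of that difference (edgeR, adjusted p = 0.0087), and did not pass without d0_KO_32, at 1.57 (adjusted p = 0.053), or without d0_WT_41, at 1.57 (adjusted p = 0.06).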

How the results depend on the processing

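With a minimum 2-fold change, 3752 genes were called between KO day 7 and day 0, 1248 between KO day 7 and day 3 and 4627 between WT day 7 and day 0. The other counts for these comparisons stayed within 1.5 times, and leaving out each library gave 7837 to 9759, 2453 to 3493 and 7832 to 10298. For the difference between genotypes, the DESeq2 Wald test called 177 genes, thinned counts 2, and leaving out each library 0 to 278. The KO change of Hkdc1 ran from -0.18 (without d7_KO_420) to 0.34 leaving out each library and was -0.26 without d0_KO_32 and d7_KO_420 together, a pairing chosen after seeing the data. Of 1764 values of single genes with a library left out, 1739 kept direction and call. These are genes of this text, many of them picked because they passed in the same libraries, so that choice favoured a high share. No paired analysis was possible because animal numbers are not shared between groups.

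Medians of lists moved as follows. Leaving out each library, the neutrophil list ran from 6.51 to 7.72, endothelium from -1.58 to -0.99, erythrocyte from -0.70 to 1.51, cytokines from 2.87 to 3.79 and pentraxins from -7.08 to -5.74. Without both libraries named above, medians were 6.19 for neutrophils, -1.10 for endothelium, -0.93 for erythrocytes and 0.42 for the clock. With a mean CPM of at least 1, B cells gave 0.64 and endothelium -1.10. With the DESeq2 Wald test, smooth muscle gave -1.28, Paneth cells -3.67, position 0.55 and pentraxins -4.90. With no filter they gave -1.14, -3.62, 1.70 and -4.86, and the tricarboxylic acid cycle 0.38. Thinned counts gave -8.14 for pentraxins. More or fewer genes are tested under these filters, and beyond that the cause was not tested. Day 0 depth limits genes with about 3 counts or fewer in a library, where rises at day 7 have wide counting intervals.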

Other observations

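Genes of the hypoxia response, protein folding stress and cell junctions were measured as well. Of 19 hypoxia genes, 12 rose (10 without d0_KO_32) and 0 fell, with a median of 0.54, and from day 3 to day 7 8 rose, or 6 without the library labelled d3_KO_345. Of 26 genes of endoplasmic reticulum stress and the ATF4 response, 11 rose and 1 fell, with a median of 0.31, and from day 3 to day 7 1 rose and 2 fell. Of 20 tight junction and adhesion genes tested, 7 rose and 1 fell, or 3 without d7_KO_420. Of 34 genes of xenobiotic metabolism tested, 8 rose (23.5%) and 6 fell (17.6%, or 9 genes without d7_KO_420), beside 27.7% and 26.6% of all genes.

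None of 5 erythrocyte genes passed. Of 3 tested Paneth cell genes, 1 rose and 1 fell. The 4 tested sex-linked genes had no call, with a median of 0.08, and 2 were lower without d0_KO_32.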
